A study of Mus musculus with 40 samples.

Results

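The genes described here encode the nuclear-encoded subunits of the respiratory chain and of ATP synthase. They were chosen by name, as protein-coding genes whose symbols begin with the prefixes of the complex I, III, IV and V subunits, together with the 4 succinate dehydrogenase genes and Cyc1. Assembly factors and Cox6a2 were left out. The rule found 85 genes among 49585 gene rows, of which 21734 are protein-coding: 36 of complex I, 4 of complex II, 9 of complex III, 17 of complex IV, 17 of complex V, and Ndufa4 with its relative Ndufa4l2. These last 2 genes were set apart because their names place them in complex I while the NDUFA4 protein is found in complex IV.

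RNA was measured in populations sorted from the bone marrow of 10 mice of strain C57BL6/129Ola, aged 46 to 51 days. Of these, 5 carried deletions of Mbd3 on both chromosomes (Mbd3del), and 5 carried floxed, undeleted Mbd3 alleles on both (control). Mbd3 encodes a subunit of the NuRD chromatin remodelling complex. Each mouse gave 4 libraries, 1 per sorted population, which made 8 groups of 5 libraries and 40 in all. The populations were haematopoietic stem cells (HSCs), their progeny the lymphoid-primed multipotent progenitors (LMPPs), and 2 later stages. The first of these, all-lymphoid progenitors (ALPs), carry the interleukin-7 receptor without Ly6D. The second carry Ly6D as well and are termed B cell-biased lymphoid progenitors (BLPs). Smart-seq2, a full-length cDNA method for small cell numbers, was used on pools of 150 HSCs or 100 cells of the other populations, per the sample labels; the series text gives these numbers the other way round. The sources used here do not name the Cre driver of the deletion or the cells in which it acts.

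The respiratory chain passes electrons from NADH (complex I) and succinate (complex II) through complex III and cytochrome c to oxygen at complex IV. Complexes I, III and IV pump protons across the inner mitochondrial membrane, and complex V uses the gradient to make ATP. Most subunits are encoded in the nucleus and a few core ones in mitochondrial DNA. Haematopoietic stem cells are known for relying on glycolysis more than their dividing progeny do.

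Libraries held 2974305 to 9082610 gene counts and 12845 to 15745 detected genes. Levels are in CPM, counts scaled to a common library total after adjustment of the totals by TMM factors over all libraries. A level per cell is not known: fewer cells of a type in a pool and less RNA per cell cannot be told apart. Mbd3 stood at 0 to 2.96 CPM in the 20 Mbd3del libraries and at 7.65 to 144 CPM in the 20 control libraries, so the genotypes did not overlap. Markers followed the sort labels: the stem cell gene Slamf1 averaged 93.3 CPM in Mbd3del and 128 CPM in control HSCs and at most 1.94 CPM in any other group, and Ly6d averaged 10589 CPM in Mbd3del and 8280 CPM in control BLPs. Of 8 T and NK cell markers Cd3e had no count in any library, but others did. The list took 0.0577% to 0.0891% of counts in Mbd3del BLPs and 0.0833% to 0.128% in control BLPs. In HSCs it took 0.0039% to 0.0087% in Mbd3del and 0.0053% to 0.0109% in control libraries. Of the 8, 3 could be tested between BLPs and HSCs in each genotype. Lck and Nkg7 were higher in BLPs than in HSCs, with log2 fold changes of 3.48 and 3.90 in Mbd3del mice and 3.72 and 4.06 in control mice. The third was not called in either genotype, at 1.05 in Mbd3del mice and -1.50 in control mice. Transcripts of sex-linked genes went against the labelled sex in 2 control mice, mouse10372 and mouse10381, and results that change without them are given with that value. The control ALP library of mouse10372 also stood apart, with 3363182 counts, the most detected genes and the highest Mbd3 level. Titles of the Mbd3del LMPP libraries call them floxed while their genotype and description labels say deleted; Mbd3 stood at 0 to 1.10 CPM in them.

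Groups were compared across all genes with edgeR's quasi-likelihood test on the counts, and p-values were adjusted over all genes tested by the Benjamini-Hochberg method. A gene is said to rise or fall where the adjusted p is under 0.05. Genes with too few counts were left out of a test, so that 77 to 81 of the 85 subunit genes were tested, depending on the comparison. Errors of fold changes are standard errors (SE), and the mouse is the replicate.

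Start regions are shown for the subunit genes on which the results below turn. These are the 250 bases before the RefSeq start of each gene on GRCm38.p6, read 5′ to 3′ on the gene's strand. Gene coordinates given below are from GENCODE M21, whose starts can differ. Some windows therefore reach into the gene as given below (Ndufa4, Sdhb) or stop short of it (Cox5a). Cox6a1 comes first because it holds both motifs that were found more often among the subunits than among all genes. Capitals mark matches on either strand to the NRF1-type motif (GCGCA, any base, GCGC) or the GABP-type motif CCGGAAG; Cox6a1 holds 2 NRF1-type sites, the first of which reads as the motif on both strands, and 1 GABP-type site. The others are Ndufa4, Cox5a, Sdhb and Cox6b2, which are followed closely below and hold neither motif in this window.
Cox6a1 (chr5:115348959-115349208, minus strand): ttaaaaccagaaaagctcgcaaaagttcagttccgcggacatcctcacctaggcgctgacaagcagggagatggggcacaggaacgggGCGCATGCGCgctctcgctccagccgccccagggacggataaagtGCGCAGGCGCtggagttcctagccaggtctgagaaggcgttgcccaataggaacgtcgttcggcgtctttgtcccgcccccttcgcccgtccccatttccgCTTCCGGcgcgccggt
Ndufa4 (chr6:11907451-11907700, minus strand): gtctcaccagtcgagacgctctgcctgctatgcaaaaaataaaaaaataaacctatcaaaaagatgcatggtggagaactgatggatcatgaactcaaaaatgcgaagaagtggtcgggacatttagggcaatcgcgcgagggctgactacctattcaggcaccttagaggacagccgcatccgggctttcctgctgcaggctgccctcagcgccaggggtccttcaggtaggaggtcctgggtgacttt
Cox5a (chr9:57520982-57521231, plus strand): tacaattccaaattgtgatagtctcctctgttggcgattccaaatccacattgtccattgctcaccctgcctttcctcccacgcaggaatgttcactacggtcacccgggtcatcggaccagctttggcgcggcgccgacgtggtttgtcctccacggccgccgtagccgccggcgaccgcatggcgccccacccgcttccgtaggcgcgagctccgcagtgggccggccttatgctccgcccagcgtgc
Sdhb (chr4:140961021-140961270, plus strand): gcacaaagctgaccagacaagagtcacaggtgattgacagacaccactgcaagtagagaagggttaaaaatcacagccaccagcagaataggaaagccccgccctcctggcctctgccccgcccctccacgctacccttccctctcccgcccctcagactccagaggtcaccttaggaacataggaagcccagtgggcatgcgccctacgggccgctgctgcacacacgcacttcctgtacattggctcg
Cox6b2 (chr7:4753095-4753344, minus strand): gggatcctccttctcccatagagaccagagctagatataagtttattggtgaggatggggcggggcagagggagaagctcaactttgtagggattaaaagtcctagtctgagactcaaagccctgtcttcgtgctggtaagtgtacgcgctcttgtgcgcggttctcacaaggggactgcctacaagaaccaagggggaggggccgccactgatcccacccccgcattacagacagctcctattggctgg

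Of the 85 genes, 67 had such a region, some of them more than 1. The NRF1-type letters occurred in 13 of them (19.4%), against 4.23% of the 27025 genes with a region. The GABP-type letters occurred in 12 (17.9%), against 7.83% of all. The letters AAGATGGC, of the YY1 type, occurred in 1 region (1.49%), that of Atp5j, against 1.83%. Atp5h, Cox6a1 and Sdhd held both of the first 2 motifs. The median GC content was 56.0% in the 72 windows of these genes and 52.4% in all 32851 windows, and its part in the motif counts was not tested. A match is a run of letters, not a measured binding site.

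Most of these genes were expressed in every library. A count was found in all 40 libraries for 77 of the 85. Over the 8 groups the mean level per kilobase of merged exons had a median of 129 CPM per kb. The highest was Cox6b1, which encodes a complex IV subunit of the intermembrane space, at 767 CPM per kb. It was followed by Cox4i1 (612 CPM per kb), a regulatory complex IV subunit, Ndufa2 (572 CPM per kb), a complex I subunit, and Cox6a1 (563 CPM per kb). Medians per complex were 131 CPM per kb for complex I, 214 for complex II, 202 for complex III, 81.1 for complex IV and 120 for complex V. Merged exons can be longer than a transcript, so this order and these medians depend in part on the annotation. For Cox4i1 they span 1550 bases, against 765 in the longest protein-coding transcript, and for Cox6b1 708 against 618. By CPM without division by length Atp5b was highest, at 1038 CPM, while Cox6b1 had 543 CPM. Over the 40 libraries the coefficient of variation of the CPM of the 77 genes ran from 16.2% to 48.9% with a median of 29.1%.

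**Figure D1:**
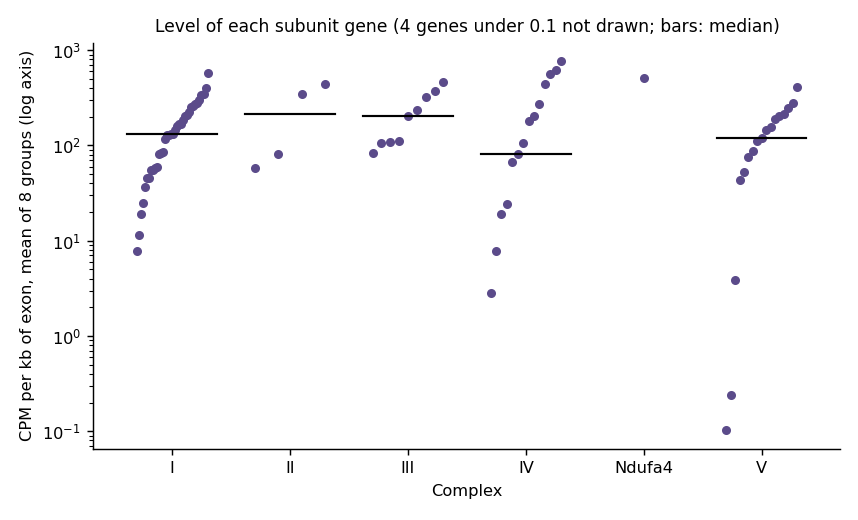
Level of each subunit gene, as the mean of the 8 group means in CPM per kilobase of merged exons on a log axis, by complex, with Ndufa4 apart. The bars are medians over all members of a complex, and 4 genes under 0.1 CPM per kb are not drawn. The medians run from 81.1 CPM per kb (complex IV) to 214 CPM per kb (complex II), and the lowest points drawn include Cox7a1 in complex IV and Atp5g2 and Atp5l in complex V.

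Where subunits exist as alternative isoforms, their levels per kilobase differed widely in most sets. These levels depend on merged exon length in the same way. Cox4i1 averaged 492 to 765 CPM per kb over the groups, while Cox4i2, whose product takes the same place in complex IV and is best known from lung, reached at most 30.3 CPM per kb. Cox6b1 far exceeded Cox6b2, the isoform known from testis, which averaged 19.3 CPM per kb over the groups. Cox8a averaged 380 to 508 CPM per kb. Its relatives were all but missing, with 0 counts for Cox8b and 1 count for Cox8c in the whole table. Cox7b had 152 to 268 CPM per kb, while Cox7b2 had 9 counts, all in 1 library. Cox7a2 averaged 229 to 318 CPM per kb and Cox7a2l 164 to 199 CPM per kb, whereas Cox7a1, the heart and muscle isoform, averaged 2.83 CPM per kb over the groups. Ndufa4l2 had 1 count. The membrane ring of ATP synthase is encoded by Atp5g1, Atp5g2 and Atp5g3, which make the same mature protein. Of these, Atp5g3 averaged 95.8 to 157 CPM per kb and Atp5g1 3.20 to 4.89 CPM per kb over the groups. Atp5g2 had 113 counts in all.

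Many of these genes have processed copies elsewhere in the genome, and reads that match a copy equally well cannot be assigned to either. In the annotated transcripts 14 of the 85 genes shared at least 25% of their 50-base words with another gene, and 40 shared none. Atp5l, a membrane subunit of ATP synthase, had 173 counts and shared 84.8% of its words with 14 other genes, 12 of them pseudogenes. Its level is uncertain for that reason, as are those of Atp5o (50.3% shared), Atp5h (47.9%), Uqcrb (43.4%), Ndufb4 (37.0%) and Cox5a (32.0%). Of the genes followed closely below, Ndufa4, Sdhb, Cox4i2, Cox6b2 and Uqcrfs1 shared no word with another gene. The library kit does not mark strand, and 37 members overlap another annotated gene, among them Cox5a and Atp5j.

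Together the 85 genes took about 2% of the gene counts. In HSCs the mean share was 1.96 ± 0.115% in Mbd3del and 2.0 ± 0.151% in control libraries (SD over 5, as in the next values). LMPPs had 2.24 ± 0.179% in Mbd3del and 2.42 ± 0.372% in control libraries. ALPs had 2.41 ± 0.272% in Mbd3del and 2.25 ± 0.408% in control libraries, and BLPs had 2.32 ± 0.349% in Mbd3del and 2.04 ± 0.234% in control libraries. In every population the libraries of the 2 genotypes overlapped. The Mbd3del BLP library of mouse10376 stood at 2.94%, while the other 4 Mbd3del BLP libraries lay between 2.11% and 2.23%.

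**Figure D2:**
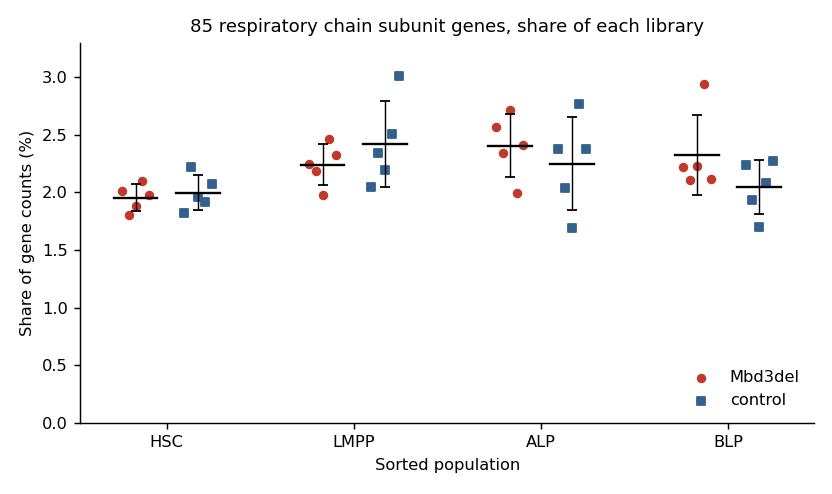
Share of gene counts taken by the 85 genes in each library (vertical axis, percent) by sorted population, with Mbd3del (red circles) left of control (blue squares); black bars are means and whiskers the SD of 5 libraries. All libraries lie between 1.69% and 3.01%, and the genotypes overlap in each population.

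From the stem cell to the lymphoid-primed progenitor, Ndufa4 and Cox5a rose in both genotypes. Ndufa4, on chromosome 6 from 11900292 to 11907497 (minus strand, GRCm38), encodes a complex IV subunit once assigned to complex I, and Cox5a a complex IV subunit on the matrix side. In Mbd3del mice Ndufa4 stood at 932, 1043, 694, 1370 and 945 CPM in LMPPs, against 443, 357, 299, 587 and 327 CPM in HSCs. In control mice it stood at 796, 943, 1230, 1293 and 1632 CPM in LMPPs, against 291, 597, 482, 381 and 376 CPM in HSCs. All LMPP libraries lay above all HSC libraries of their genotype. The log2 fold change was 1.31 ± 0.23 in Mbd3del mice (SE, adjusted p = 0.00274) and 1.47 ± 0.24 in control mice (adjusted p = 0.00227).

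Cox5a (chromosome 9, 57521274 to 57532426, plus strand) followed the same course at a lower level. In Mbd3del mice it stood at 175, 180, 148, 257 and 217 CPM in LMPPs, against 122, 119, 93.2, 142 and 98.4 CPM in HSCs. In control mice it stood at 154, 245, 313, 238 and 357 CPM in LMPPs, against 80.1, 133, 149, 115 and 125 CPM in HSCs. The 2 populations did not overlap in either genotype. The log2 fold change was 0.77 ± 0.21 in Mbd3del mice (adjusted p = 0.0411, or 0.0521 with the mouse as a block) and 1.12 ± 0.25 in control mice (adjusted p = 0.0172). Without control mice mouse10372 and mouse10381 the adjusted p in control mice was 0.0624 for Ndufa4 and 0.124 for Cox5a, with log2 fold changes of 1.26 and 0.95. The call for Cox5a also rested on single mice: in control mice the adjusted p was 0.0617 without mouse10358, 0.0737 without mouse10380 and 0.0956 without mouse10381, and in Mbd3del mice it was 0.0631 to 0.144 whichever mouse was left out. Ndufa4 passed without any single mouse in both genotypes.

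Atp5b, the catalytic beta subunit of ATP synthase, rose in Mbd3del LMPPs, which had 1481, 1290, 2072, 951 and 948 CPM, against 803, 583, 842, 593 and 825 CPM in Mbd3del HSCs. These libraries did not overlap, and the log2 fold change was 0.89 ± 0.24 (adjusted p = 0.0378). It did not pass without mouse10360 (adjusted p = 0.130), mouse10361 (0.157), mouse10365 (0.0857) or mouse10376 (0.0623), nor without scaling of the library totals (0.0804). In control mice the same step had a log2 fold change of 0.64 ± 0.25 (adjusted p = 0.179). The difference of the step between genotypes was tested for each gene and is given below.

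Most other subunits had small positive fold changes that did not pass. In Mbd3del mice 3 of 78 tested subunits rose and 1, Cox4i2, fell, or 3.85% and 1.28%, beside 2.99% and 3.75% of all 11365 genes tested. The limits of the Cox4i2 call are given below. The median log2 fold change was 0.14 for the subunits and -0.04 for all genes, and 56 subunits were positive. In control mice 2 of 79 rose and 0 fell, which is 2.53% rising, beside 2.82% of the 11043 genes rising and 3.18% falling. The median was 0.33 for the subunits and 0.00 for all genes, and 70 subunits were positive; without control mice mouse10372 and mouse10381 the median was 0.11 with 48 positive. The called shares lay near those of all genes in both genotypes. In Mbd3del mice 5 of 78 subunits (6.41%) had all LMPP libraries above all HSC libraries, beside 4.12% of all genes. In control mice 2 of 79 (2.53%) did, beside 3.67% of all genes. In each genotype 1 subunit had all below, beside 5.17% of all genes in Mbd3del and 5.5% in control mice. Complex II was positive for 4 of 4 genes in Mbd3del mice and 3 of 4 in control mice, and complex V for 13 of 15 in Mbd3del mice and 14 of 15 in control mice. Of 22 S phase and mitosis genes, 8 rose in Mbd3del LMPPs and 19 in control LMPPs. Their share of gene counts was 0.372% to 0.628% in Mbd3del LMPPs against 0.134% to 0.251% in Mbd3del HSCs, and 0.286% to 0.537% in control LMPPs against 0.127% to 0.162% in control HSCs. The part of cycling in the subunits' levels was not tested.

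**Figure D3:**
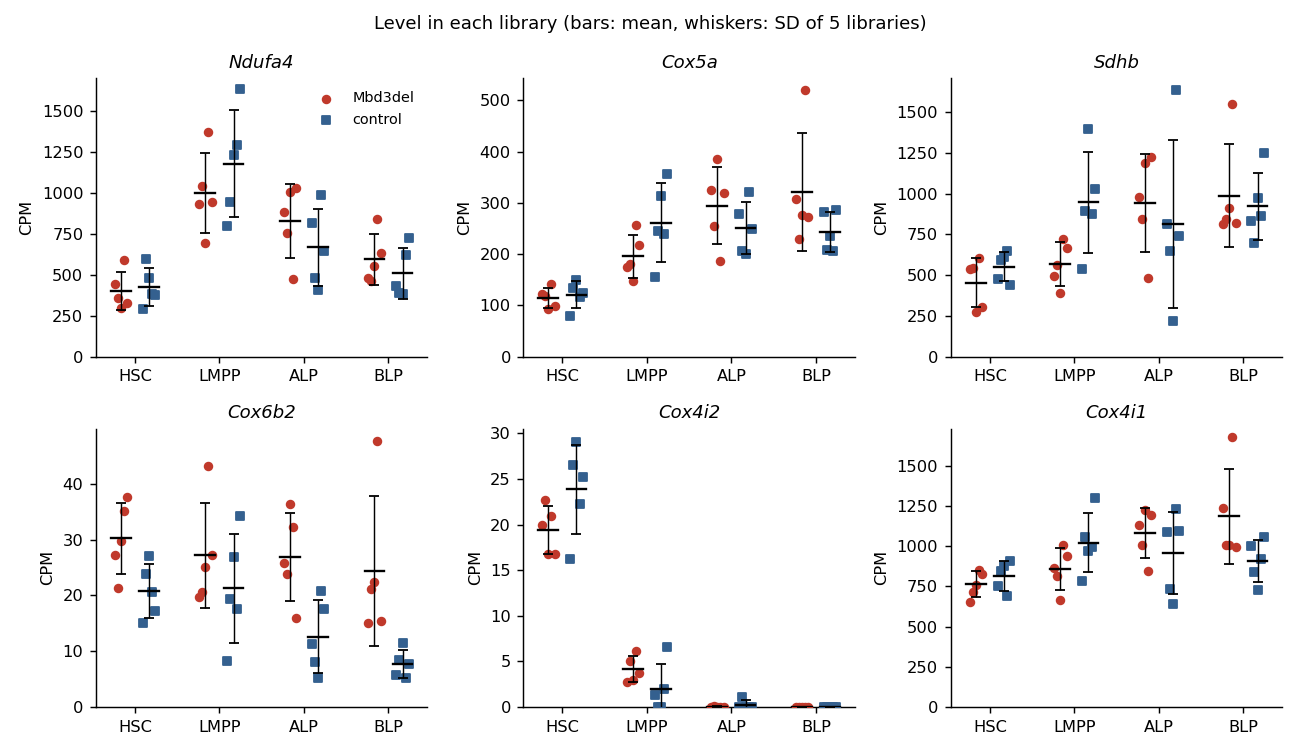
Level of 6 subunit genes in each library (CPM) by population, with Mbd3del (red circles) left of control (blue squares); bars are means and whiskers the SD of 5 libraries. Ndufa4 has its highest group means in LMPPs, Cox5a stays above its HSC level in the later populations, Cox4i2 is at or near 0 in ALPs and BLPs, and Cox6b2 does not overlap between genotypes in BLPs.

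Cox4i2, which lies on chromosome 2 from 152754173 to 152765037 (plus strand), went with the stem cells. In Mbd3del mice it stood at 19.9, 22.7, 16.8, 21 and 16.8 CPM in HSCs, at 2.74, 5.0, 3.0, 6.11 and 3.77 CPM in LMPPs, at 0 in 4 ALP libraries and 0.143 CPM in the other, and at 0 in all 5 BLP libraries. In control mice it stood at 16.2, 26.6, 29.0, 22.3 and 25.3 CPM in HSCs, at 1.32, 0, 0, 1.91 and 6.57 CPM in LMPPs, at 0 in 4 ALP libraries and 1.11 CPM in the other, and at 0 in all 5 BLP libraries. Each later population lay below the HSC libraries without overlap, in both genotypes.

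By summed counts, Cox4i2 was 4.51-fold lower in Mbd3del LMPPs than in Mbd3del HSCs (counting interval 3.73 to 5.48) and 10.9-fold lower in control LMPPs than in control HSCs (8.61 to 14.0). With 0 counts in BLPs it was at least 176-fold lower in Mbd3del BLPs than in Mbd3del HSCs and at least 249-fold lower in control BLPs than in control HSCs, against a floor of 3 counts over the group. The intervals are 95% and cover counting error of pooled reads only. They leave out differences between mice, and reads are not independent molecules, so they do not compare the genotypes. The control LMPP value rests on 76 counts in 3 libraries. The test called the fall to LMPPs in Mbd3del mice (adjusted p = 0.0178, but 0.0566 with the mouse as a block) and not in control mice (adjusted p = 0.101). Without mouse10360, mouse10361, mouse10365 or mouse10384 the adjusted p in Mbd3del mice was 0.0542 to 0.0875. Cox4i2 passed the filter on low counts only through the HSC or LMPP libraries, where it is high, so its calls at this and the later steps are given as a description. The paralogue Cox4i1 did not take this course: its group means were 763, 858, 1080 and 1186 CPM in Mbd3del HSCs, LMPPs, ALPs and BLPs, and 816, 1022, 958 and 911 CPM in the same populations of control mice.

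After the LMPP stage few subunits passed the test. From LMPPs to ALPs in Mbd3del mice 0 of 78 rose and 1 was called lower, Cox4i2, which was tested only through its LMPP libraries, beside 1.11% of 11082 genes rising and 1.07% falling; with the mouse as a block, or without mouse10360 or mouse10361, 0 passed, and without mouse10376 2 rose and 1 fell. In control mice 0 of 77 passed, beside 0.469% of 10871 genes rising and 0.469% falling, and DESeq2 called 0; 1 subunit, Ndufa4, had an unadjusted p under 0.05, with a log2 fold change of -0.81 ± 0.30 (adjusted p = 0.434). The medians had opposite signs, 0.20 in Mbd3del mice with 63 of 78 positive and -0.19 in control mice with 15 of 77 positive. Without control mice mouse10372 and mouse10381 the control median was 0.14. From ALPs to BLPs 0 of 77 passed in Mbd3del mice, beside 0.507% of 10842 genes rising and 0.129% falling, and 0 of 77 in control mice, beside 0.238% of 10905 genes rising and 0.0275% falling; 0 had an unadjusted p under 0.05 in either genotype, and DESeq2 called 0. Ndufa4 had fitted log2 fold changes of -0.48 ± 0.24 in Mbd3del mice and -0.41 ± 0.29 in control mice at this step. Its BLP levels were 479, 461, 554, 842 and 633 CPM in Mbd3del mice and 430, 388, 382, 620 and 723 CPM in control mice, which overlap those of HSCs.

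**Figure D4:**
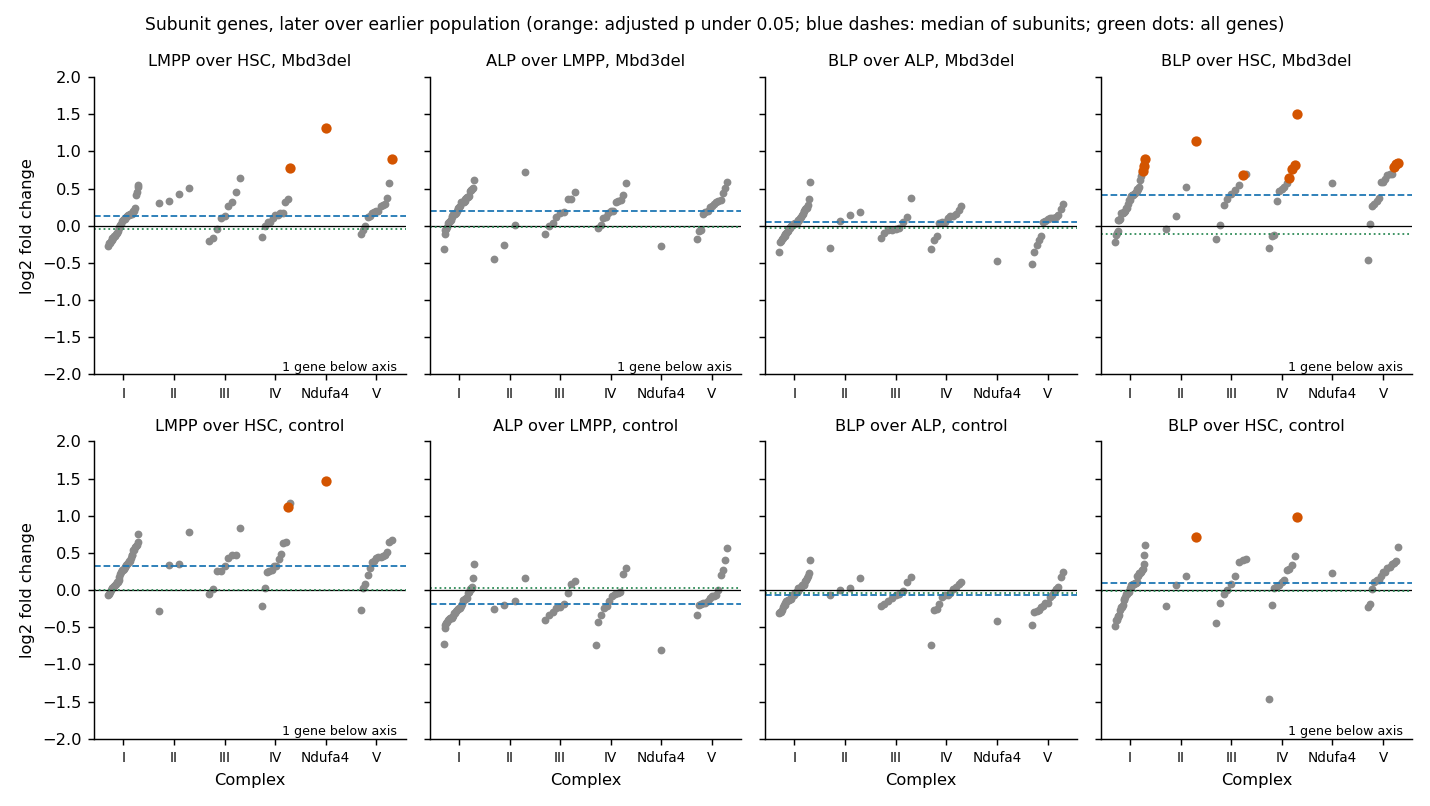
log2 fold change of each tested subunit by complex (horizontal axis) for 4 comparisons of a later over an earlier population, Mbd3del in the upper row and control in the lower. Orange points passed the test, the blue dashed line is the median of the subunits and the green dotted line that of all genes tested; 1 gene below the axis in a panel is Cox4i2. Subunits that passed lie mostly in the comparison of BLPs over HSCs in Mbd3del mice, where 12 rose.

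The ends of the path, BLPs over HSCs, were compared directly as an addition chosen after the steps had been seen. Lack of overlap between libraries is a description here, for genes already called on the same values. Its share over all genes was not computed for this comparison. Here Cox5a and Sdhb, which encodes the iron-sulfur subunit of succinate dehydrogenase, rose in both genotypes. In Mbd3del mice Cox5a stood at 308, 230, 277, 521 and 272 CPM in BLPs, against 122, 119, 93.2, 142 and 98.4 CPM in HSCs. In control mice it stood at 282, 208, 236, 206 and 285 CPM in BLPs, against 80.1, 133, 149, 115 and 125 CPM in HSCs. All BLP libraries lay above all HSC libraries. The log2 fold change was 1.5 ± 0.25 in Mbd3del mice (adjusted p = 0.000609) and 0.99 ± 0.21 in control mice (adjusted p = 0.00409).

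On chromosome 4 (140961203 to 140979193, plus strand), Sdhb stood at 813, 841, 912, 1548 and 822 CPM in Mbd3del BLPs, against 535, 542, 275, 606 and 307 CPM in Mbd3del HSCs. It stood at 829, 697, 971, 861 and 1246 CPM in control BLPs, against 473, 590, 610, 649 and 438 CPM in control HSCs. Again the populations did not overlap. The log2 fold change was 1.14 ± 0.27 in Mbd3del mice (adjusted p = 0.00864) and 0.71 ± 0.19 in control mice (adjusted p = 0.0175, but 0.0632 with the mouse as a block). Its adjusted p in control mice was 0.0668 without mouse10357, 0.0760 without mouse10381 and 0.179 without mouse10372 and mouse10381, with a log2 fold change of 0.45 in the last case.

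In Mbd3del mice 12 of 78 tested subunits rose, or 15.4%, beside 9.48% of 11258 genes rising and 9.83% falling. The 1 called lower, or 1.28%, was Cox4i2, which was tested only through its HSC libraries. The median log2 fold change was 0.42 for the subunits and -0.11 for all genes. Without any scaling of library totals the median was -0.32 for all genes and 0.20 for the subunits, and 5 rose. Those that rose came from every complex: 3 from complex I, 1 each from complexes II and III, 4 from complex IV and 3 from complex V.

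Complex I gave Ndufa1, an accessory membrane subunit, with Ndufb7 and Ndufb11. Ndufa1 stood at 181, 134, 163, 288 and 181 CPM in Mbd3del BLPs, against 108, 80.4, 76.4, 159 and 86.3 CPM in Mbd3del HSCs. Only the highest HSC library reached into the BLP range, and the log2 fold change was 0.90 ± 0.27 (adjusted p = 0.0313). Complex III gave Uqcrfs1, the Rieske iron-sulfur protein, with 420, 390, 487, 485 and 435 CPM in Mbd3del BLPs, against 322, 299, 165, 369 and 237 CPM in Mbd3del HSCs. These libraries did not overlap, and the log2 fold change was 0.68 ± 0.22 (adjusted p = 0.0440). Whether this call held with single mice left out is not given here for this gene. Complex IV gave Cox6c, a small membrane subunit, with Cox4i1, Cox6a1 and Cox5a. Cox6c stood at 303, 192, 258, 469 and 293 CPM in Mbd3del BLPs, against 187, 122, 149, 247 and 160 CPM in Mbd3del HSCs, with 1 HSC library above the lowest BLP library. Its log2 fold change was 0.82 ± 0.27 (adjusted p = 0.0440).

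Complex V gave Atp5j, the coupling factor F6 of the stalk, Atp5o, the stalk subunit that confers oligomycin sensitivity, and Atp5j2. Atp5j stood at 718, 524, 513, 872 and 607 CPM in Mbd3del BLPs, against 457, 391, 306, 394 and 258 CPM in Mbd3del HSCs. The libraries did not overlap, and the log2 fold change was 0.85 ± 0.22 (adjusted p = 0.0139). Atp5o stood at 466, 408, 421, 831 and 525 CPM in Mbd3del BLPs, against 358, 321, 219, 355 and 242 CPM in Mbd3del HSCs. It did not overlap either, with a log2 fold change of 0.84 ± 0.24 (adjusted p = 0.0256). Ndufa1 and Cox6c each lost the call without mouse10360, mouse10361, mouse10365 or mouse10384, with adjusted p from 0.0536 to 0.120. Atp5o lost it without mouse10365 (0.0547), mouse10376 (0.0516) or mouse10384 (0.0936), and Atp5j without mouse10384 (0.0525). Ndufa1 and Cox6c also did not pass without scaling (adjusted p = 0.0589 and 0.0965).

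The count depended on single mice: 6 rose without mouse10360, 7 without mouse10361, 5 without mouse10365 and 3 without mouse10384. Without mouse10376, whose BLP library took the highest share, 8 rose. In control mice 2 of 78 rose, or 2.56%, beside 7.34% of 11195 genes rising and 8.33% falling. The 1 called lower, or 1.28%, was again Cox4i2, tested only through its HSC libraries. The control median was 0.09 for the subunits (0.00 without scaling and -0.03 without mouse10381) and -0.01 for all genes. Shares of S phase and mitosis genes were 0.587% to 0.784% in Mbd3del BLPs against 0.134% to 0.251% in Mbd3del HSCs, and 0.297% to 0.524% in control BLPs against 0.127% to 0.162% in control HSCs. Their part was not tested.

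Whether the path differed between genotypes was tested directly. For BLPs over HSCs 0 of 79 subunits passed, beside 0.0472% of 12699 genes, and the counts of 12 and 2 risen subunits are not by themselves a difference between genotypes; DESeq2 called 0 as well. The fitted difference, Mbd3del minus control, was positive for 71 of 79 subunits, with a median of 0.36 beside -0.04 for all genes (-0.17 without scaling). The smallest p-values belonged to Uqcrfs1 (0.73 ± 0.33, unadjusted p = 0.0386, adjusted p = 0.612), Cox4i1 (0.52 ± 0.24, unadjusted p = 0.0398, adjusted p = 0.614) and Ndufa3, an accessory complex I subunit (0.69 ± 0.32, unadjusted p = 0.0453, adjusted p = 0.622). These 3 were the subunits with an unadjusted p under 0.05.

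The single steps were tested in the same way. For LMPPs over HSCs 0 of 79 passed, beside 0.0% of 12576 genes, and 18 were positive with a median of -0.18 beside -0.01; without control mice mouse10372 and mouse10381 the median was 0.05 with 47 positive. The 3 smallest p-values were those of Sdhc, a membrane anchor of complex II (0.72 ± 0.28, adjusted p = 0.820), Ndufs1, the largest complex I subunit (0.60 ± 0.33, adjusted p = 1.0), and Ndufab1, the acyl carrier protein (-0.75 ± 0.43, adjusted p = 1.0). For ALPs over LMPPs 0 of 79 passed, beside 0.0% of 12237 genes, and 66 were positive with a median of 0.42 beside -0.08 (-0.23 without scaling); without the same 2 control mice the median was 0.09 with 54 positive. Here Ndufab1 (0.88 ± 0.40), Uqcrq, a small complex III subunit (0.87 ± 0.41), and Atp5j (0.81 ± 0.39) had the smallest p-values (adjusted p = 0.999 for each). For BLPs over ALPs 0 of 78 passed, beside 0.0% of 12123 genes, with Cox6a1 (0.52 ± 0.35), Atp5s, coupling factor B (-0.76 ± 0.53), and Uqcrfs1 (0.47 ± 0.36) the nearest (adjusted p = 1.0 for each). Over all genes 645, 552 and 489 had an unadjusted p under 0.05 in these 3 tests, in order of stage, of which 1, 4 and 0 were subunits, and DESeq2 called 0 subunits in each.

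Between genotypes 0 subunits passed edgeR's test in any population; DESeq2 called 0 in HSCs, LMPPs and ALPs and 1, Cox6b2, in BLPs. In HSCs 0 of 78 passed, beside 0.0176% of 11358 genes, and 0 had an unadjusted p under 0.05. Over all genes 467 had an unadjusted p under 0.05, where 568 would be expected if none differed. The deleted gene Mbd3 passed (-6.93 ± 0.96, adjusted p = 0.0365), but not with any single mouse left out (0.0662 to 0.161). This 0 therefore does not show that no subunit changed. The fold changes of the subunits were small, with 65 of 78 negative and a median of -0.10 beside 0.02 for all genes. The nearest were Ndufs1 (-0.40 ± 0.20), Cox6b2 (0.54 ± 0.37) and Ndufb11, a membrane subunit of complex I (-0.29 ± 0.21), each with an adjusted p = 0.955. The 6 markers of the lymphoid-primed multipotent progenitor took 0.0441% to 0.0689% of counts in Mbd3del HSCs, against 0.0199% to 0.0415% in control HSCs, without overlap; all 6 had counts in both groups, 4 of 6 were positive and 0 passed. The 8 dendritic cell markers took 0.0901% to 0.125% in Mbd3del HSCs, against 0.0737% to 0.094% in control HSCs, which overlap. Of these Itgax had no count in Mbd3del HSCs, and of 6 tested 6 were positive and 0 passed. The part of such cells in the subunits' levels was not tested.

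In LMPPs 0 of 78 passed, beside 0.0183% of 10918 genes, but 64 of 78 were negative, with a median of -0.28 beside 0.01 for all genes (-0.17 beside 0.12 without scaling). Without control mice mouse10372 and mouse10381 the median was -0.10. Of all 78, 9 had an unadjusted p under 0.05, among 567 genes in all. Complex I was negative for 33 of 36 genes with a median of -0.34, and complex II for 2 of 4. Sdhb had 497, 563, 390, 723 and 664 CPM in Mbd3del LMPPs, against 538, 891, 1397, 874 and 1030 CPM in control LMPPs, which overlap. Its log2 fold change was -0.73 ± 0.24 (adjusted p = 0.885). The complex I subunit genes Ndufb8 (-0.64 ± 0.21, adjusted p = 0.885) and Ndufa12 (-0.88 ± 0.37, adjusted p = 0.937) were the others of the 3 nearest. Ndufb8 had 344, 363, 278, 427 and 459 CPM in Mbd3del LMPPs, against 364, 764, 581, 595 and 624 CPM in control LMPPs, where 1 control library lay within the Mbd3del range. Stem cell markers stood higher in the same Mbd3del libraries: the 10 genes of that list took 0.0808% to 0.107% of counts in Mbd3del LMPPs, against 0.0332% to 0.0796% in control LMPPs. All 10 had counts in both groups, and of 8 tested 7 were positive and 0 passed. The 7 megakaryocyte and platelet markers took 0.0146% to 0.0272% in Mbd3del LMPPs, against 0.0035% to 0.0181% in control LMPPs, and only Gp1bb had no count in either group. The part of such cells in the subunits' levels was not tested.

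In ALPs 0 of 77 passed, beside 0.0182% of 11009 genes, and 0 had an unadjusted p under 0.05. The same test did not call the deleted gene Mbd3 either (-6.09 ± 1.05, adjusted p = 0.128). Over all genes 253 had an unadjusted p under 0.05, where 550 would be expected if none differed. The count of 0 therefore does not show that no subunit changed. Here 63 of 77 were positive, with a median of 0.12 beside -0.04 for all genes; without control mice mouse10372 and mouse10381, 39 were positive and 39 negative. The nearest were Cox6b2 (1.07 ± 0.53), Atp5j (0.46 ± 0.32) and Ndufv2, an iron-sulfur subunit of complex I (0.48 ± 0.35), each with an adjusted p = 1.0.

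In BLPs 0 of 77 passed, beside 0.0743% of 10772 genes, and 66 were positive, with a median of 0.22 beside -0.03. An unadjusted p under 0.05 was found for 3 of them and for 895 genes in all. Of the BLP libraries, that of Mbd3del mouse10376 gave the subunits the largest share of counts (2.94%) and that of control mouse10372 the smallest (1.70%). The medians and signs given here include both. Complex IV had a median of 0.36, complex V of 0.34 and complex I of 0.20. Of the 77, 2 had all Mbd3del libraries above all control libraries, or 2.60%, and 0 had all below, beside 1.67% of all genes above and 1.04% below. That share lay near that of all genes, of which 0.0557% passed the test as higher. The first was Cox6b2, on chromosome 7 from 4751792 to 4753094 (minus strand), at 15.1, 21.1, 22.3, 47.7 and 15.5 CPM in Mbd3del BLPs, against 5.8, 8.32, 11.4, 5.22 and 7.68 CPM in control BLPs. Its log2 fold change was 1.68 ± 0.52 (adjusted p = 0.332, but 0.0127 by DESeq2). Without mouse10376, the highest Mbd3del library, the fold change was 1.29. The second was Uqcrfs1, on chromosome 13 from 30540308 to 30545362 (minus strand), at 420, 390, 487, 485 and 435 CPM in Mbd3del BLPs, against 332, 301, 130, 326 and 295 CPM in control BLPs. Its log2 fold change was 0.69 ± 0.23 (adjusted p = 0.357), and 0.53 without mouse10372, the lowest control library. Cox4i1 was the third (0.40 ± 0.18, adjusted p = 0.601).

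Other lists stood apart in the same BLP libraries. S phase and mitosis genes took 0.587% to 0.784% of counts in Mbd3del BLPs, against 0.297% to 0.524% in control BLPs, and 22 of 22 were positive with 1 passing, Rrm2. The 8 dendritic cell markers took 0.241% to 0.467% in Mbd3del BLPs, against 0.110% to 0.236% in control BLPs; all 8 had counts in both groups, 8 of 8 were positive and 0 passed. The 11 neutrophil and monocyte markers took 0.0501% to 0.0800% in Mbd3del BLPs, against 0.0218% to 0.0465% in control BLPs; of 8 tested 7 were positive and 1 passed. Ltf had no count in Mbd3del BLPs, and Elane and Ltf had none in control BLPs. The part of these in the subunits' levels was not tested.

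Cox6b2 had a positive fitted difference between genotypes in all 4 populations, with log2 fold changes of 0.54, 0.37, 1.07 and 1.68 from HSCs to BLPs, of which 0 passed. It stood at 27.3, 21.4, 29.7, 35.1 and 37.6 CPM in Mbd3del HSCs, against 15.1, 23.9, 27.1, 20.6 and 17.2 CPM in control HSCs. In LMPPs it stood at 19.8, 20.6, 25.1, 43.1 and 27.1 CPM in Mbd3del, against 8.19, 19.4, 26.9, 17.6 and 34.2 CPM in control. In ALPs it stood at 25.9, 23.8, 36.4, 32.3 and 15.9 CPM in Mbd3del, against 11.2, 8.04, 5.17, 20.8 and 17.5 CPM in control. The genotypes overlapped in these 3 populations. From HSCs to BLPs the Mbd3del means were 30.2, 27.2, 26.9 and 24.3 CPM and the control means 20.8, 21.2, 12.6 and 7.69 CPM. The fitted change of BLPs over HSCs was -0.30 ± 0.42 in Mbd3del mice and -1.46 ± 0.51 in control mice (adjusted p = 0.0724), with a difference of 1.17 ± 0.59 (unadjusted p = 0.0608, adjusted p = 0.662).

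**Figure D5:**
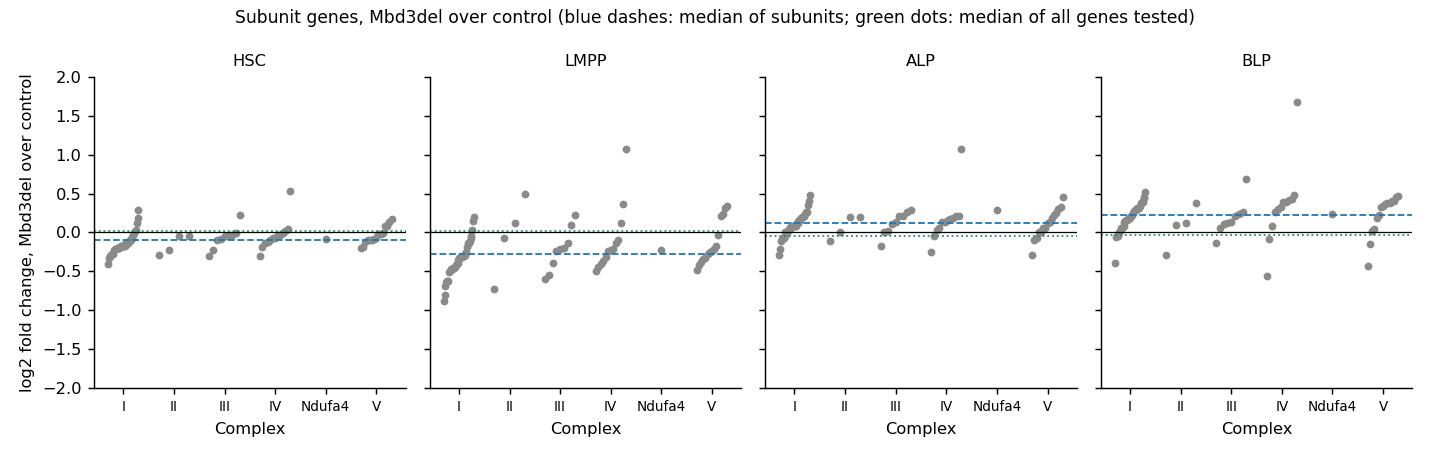
log2 fold change of each tested subunit, Mbd3del over control, by complex (horizontal axis) in each population. The blue dashed line is the median of the subunits and the green dotted line that of all genes tested. From HSCs to BLPs the medians are -0.10, -0.28, 0.12 and 0.22, and no point passed the test; the highest in BLPs is Cox6b2.

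When the 4 libraries of each mouse were summed, an addition chosen after the data had been seen, 0 of 81 subunits passed between 5 Mbd3del and 5 control mice, beside 0.173% of 13882 genes. The median was -0.01 for the subunits (0.03 without scaling) and 0.00 for all genes, with 37 positive and 44 negative; 2 had an unadjusted p under 0.05, and DESeq2 called 0. Cox6b2 came nearest (0.80 ± 0.25, unadjusted p = 0.00663, adjusted p = 0.367). It was followed by Atp5g3 (0.27 ± 0.10, adjusted p = 0.492). Uqcr11, a small complex III subunit, lies 3447 bases from Mbd3 on chromosome 10, and its log2 fold changes from HSCs to BLPs were -0.05, -0.55, 0.11 and 0.13, with 0 passing.

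Other mitochondrial lists were read from the same fits. Of the 13 subunits encoded in mitochondrial DNA 8 could be tested, and 0 passed in any comparison made. Of 44 assembly factors tested 1 passed in 1 of the comparisons, Atpaf2, a chaperone of ATP synthase, in Mbd3del BLPs over HSCs (1.06 ± 0.26, adjusted p = 0.00875). Among 13 tricarboxylic acid cycle genes Fh1, fumarate hydratase, rose in BLPs over HSCs in Mbd3del mice (1.11 ± 0.20) and control mice (0.94 ± 0.22). In that comparison Suclg2, a subunit of succinyl-CoA ligase, fell in Mbd3del mice (-1.12 ± 0.30), and Dlst, a subunit of the oxoglutarate dehydrogenase complex, rose in control mice (0.99 ± 0.28). Slc25a5, an adenine nucleotide carrier of the inner membrane, rose in the same comparison in Mbd3del mice (0.86 ± 0.22) and control mice (0.58 ± 0.18). Of 18 genes in the glycolysis list 0 rose and 5 fell in Mbd3del BLPs over HSCs, beside 9.48% of all genes rising and 9.83% falling. In control mice 1 rose and 3 fell, beside 7.34% rising and 8.33% falling. The control riser, Pdk1, and Pdk3, which fell, encode pyruvate dehydrogenase kinases and not glycolytic enzymes. Aldoa, the aldolase, fell in both genotypes (-1.77 ± 0.19 in Mbd3del mice and -1.37 ± 0.20 in control mice), as did Ldhb, a lactate dehydrogenase subunit (-1.77 ± 0.30 in Mbd3del mice and -2.50 ± 0.34 in control mice). Among 18 regulators of respiratory genes Myc rose in LMPPs over HSCs in Mbd3del mice (1.36 ± 0.21) and control mice (1.26 ± 0.18), and Mycn fell in the same step (-1.74 ± 0.27 in Mbd3del mice and -2.37 ± 0.37 in control mice).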

How the data were processed

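RNA was measured by Smart-seq2 in 40 sorted pools. The table the authors deposited holds unnormalised counts of reads for each gene and library. Per the submitters' processing notes reads were aligned with STAR 2.5.2b to GRCm38 and counted with HTSeq 0.6.1p1. No source used here states the annotation release or the strand setting. The 79325 rows of repeat regions, which together held 0.205% to 2.28% of a library, name no gene and were left out. Smart-seq2 reads carry no molecular identifiers, so counts are reads and not molecules, and 3 counts in a library stood for 0.341 to 1.02 CPM.

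Symbols and coordinates are those of GENCODE M21; promoters are from RefSeq. Groups were taken from the labels. Tests were edgeR 4.0.16 quasi-likelihood F tests (R 4.3.3, TMM scaling, filterByExpr with a minimum count of 10 and a total of 15), fitted on the libraries of each comparison, with the interaction of genotype and population for differences between genotypes, and Benjamini-Hochberg adjustment over all genes tested. DESeq2 1.42.0 and other scalings, filters, estimators, blocks and left-out libraries were alternatives. The steps compare populations of the same mice, so that mice pair the samples, per the labels; deviations from the group means of libraries from 1 mouse correlated at -0.281 to 0.277.

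Named genes were the up to 6 called subunits of each direction with the largest changes in a step and at least 5 CPM on average in whichever group is higher, the 3 with the smallest p-values where a comparison of genotypes called none, the isoform sets, and Mbd3; 1 gene is not reported here. Members and lists were chosen with earlier results of these data known. Uqcr11 and the genes named from other lists were chosen after their values were seen.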

Additional observations from a re-analysis of the deposited data

Results flagged for a closer look

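Of 200 groups of 5 libraries checked, 16 had 1 library whose gap to the nearest other library was large for the range of the group. Chance alone gives about 1 in 20 such groups, and groups of one library are not independent of each other.

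The Mbd3del BLP library of mouse10376 accounted for 8 of the 16. The subunits took 2.94% of its gene counts, while the other 4 libraries lay between 2.11% and 2.23%. Single genes high in it were Atp5o (831 CPM, others 408 to 525 CPM), Cox5a (521 CPM, others 230 to 308 CPM), Cox6a1 (752.5 CPM, others 439 to 523 CPM), Cox6b2 (47.7 CPM, others 15.1 to 22.4 CPM), Ndufa12 (307 CPM, others 129 to 163 CPM), Sdhb (1548 CPM, others 813 to 912 CPM) and Uqcrq (391.5 CPM, others 177 to 207 CPM).

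Another library of the same mouse was low in 2 subunits. In its ALP library Atp5o stood at 253 CPM (others 520 to 575.5 CPM) and Ndufa3 at 186 CPM (others 329 to 375 CPM).

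In control mice, the HSC library of mouse10358 had 415 CPM of Cox6a1 (others 266 to 308 CPM). The libraries of mouse10372 had 26.1 CPM of Atp5s in ALPs (others 83.5 to 96.4 CPM), and in BLPs 130 CPM of Uqcrfs1 (others 295 to 332 CPM). The BLP library of mouse10381 had 219 CPM of Ndufa1 (others 118 to 147 CPM). Cox4i2 was at 0 in all ALP libraries except those of Mbd3del mouse10361 (0.143 CPM) and control mouse10358 (1.11 CPM).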

How the results depend on the processing

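No named gene changed direction under the alternatives run. The median fold change of the subunits changed sign in 15 of 256 repeats, over 8 comparisons whose median was at most 0.19 in size. Counts of called subunits stayed within 1.5 times of the main count in 229 of 256 repeats. That total says little of stability, since most comparisons had a main count of 0, and 0 against 0 counted as unchanged. Of the 27 repeats that moved, all but the DESeq2 call between genotypes in BLPs fell in the comparisons with a called subunit. Named subunits kept their side of the threshold in 604 repeats, lost it in 44 and gained it in 1. Mbd3 kept its side in 62, lost it in 17 and gained it in 5. Between genotypes in BLPs DESeq2 called 1 subunit, Cox6b2. For LMPPs over HSCs in control mice, DESeq2 and the newer edgeR estimator called 5 each, and 0 passed without both control mice whose sex-linked transcripts go against the label. In Mbd3del mice the same step gave 2 with no expression filter and 2 with the mouse as a replicate block, and ALPs over LMPPs gave 0 with either. For BLPs over HSCs in control mice DESeq2 called 6 and the newer estimator 5; in Mbd3del mice 6 passed without scaling. The replicate block moved no other count by over 1.5 times. The causes were not tested.

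With each mouse left out in turn, called subunits numbered 1 to 4 for LMPPs over HSCs in control mice and 1 to 2 in Mbd3del mice, 0 to 3 for ALPs over LMPPs in Mbd3del mice, 2 to 3 for BLPs over HSCs in control mice and 4 to 9 in Mbd3del mice, and 0 in the other comparisons.

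Depth limits what can be said of low genes, since 3 counts in a library are 0.341 to 1.02 CPM. Below that level a gene can be missed, and Cox4i2 at 0.143 CPM in Mbd3del ALPs rested on 1 count in 1 library. Genes with near-identical copies and genes that overlap others are uncertain in level.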
